A study of Mus musculus with 40 samples.

Results

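The trophoblast lineage factors examined here are 10 mouse genes: Tead4, Cdx2, Gata3, Eomes, Elf5, Tfap2c, Hand1, Gata2, Tfap2a and Plac8. They were chosen by symbol from 55276 genes in each of a genotype table and a time course table, and from 55291 genes in a Pramel7 table. RNA had been sequenced in 34 libraries of mouse E14tg2a cells, an embryonic stem cell line grown with serum and leukaemia inhibitory factor. The genotype table has 6 groups of 2 libraries: unmodified cells (WT), cells with both Ctbp1 and Ctbp2 knocked out (CtbpDKO), cells without Dux (DuxKO), cells without CtBP and Dux (labelled Ctbp_DuxTKO, here Ctbp-Dux TKO), cells with Dppa2 knocked out (Dppa2KO), and a line described as CtbpDKO with a Dppa2 knockout (DKO-Dppa2). In the Pramel7 table there are 4 libraries of WT cells and 2 each of DuxKO, a Pramel7 knockout (P7KO), Pramel7 overexpression (P7OE) and Pramel7 overexpression in DuxKO cells (DuxKO-P7OE). The time course follows CtbpDKO cells with 2 libraries each at days 0, 3, 9, 12 and 18, under labels that add the word Dox without saying when it was given. All groups share the E14tg2a background. The labels do not say whether a knockout line is 1 clone, how Pramel7 was overexpressed, or whether libraries of 1 group came from separate cultures, so p-values measure only the spread between these libraries, which may be technical.

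Trophoblast is the lineage of the placenta. It begins as the trophectoderm, the outer layer of the blastocyst. In outer cells the Hippo pathway is low, so the coactivators Yap1 and Wwtr1 enter the nucleus, bind the DNA-binding protein Tead4 and turn on Cdx2 and Gata3. Cdx2, Eomes, Elf5 and Tfap2c then sustain trophoblast stem cells, while Hand1 drives the giant cells and Gata2 acts with Gata3 on placental hormone genes. Plac8 was named for its placental expression. Embryonic stem cells come from the inner cell mass and normally keep these genes low, and Elf5 is known for a promoter that is methylated in them. CtBP proteins are corepressors that bind no DNA themselves and are brought to genes by partners such as the zinc finger proteins Zeb1 and Zeb2. Dux and Dppa2 act in the genome activation of the 2-cell embryo and in 2-cell-like stem cells, and Pramel7 is a factor of the inner cell mass linked to low DNA methylation.

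Promoter sequences were taken from RefSeq (GRCm38.p6), which gave 11 windows for 7 of the 10 genes. Each window is the 250 bases before an annotated start, printed 5′ to 3′ on the gene's strand. There was no entry for Tead4, Tfap2c and Hand1. Elf5, Eomes, Plac8 and Cdx2 are shown because Elf5 had at most 6 counts in any library, Eomes and Plac8 moved with CtBP, and Cdx2 changed in the Dux and Pramel7 comparisons. Capitals mark CAGGTG or its other-strand form CACCTG, the E-box of the Zeb proteins.
Elf5: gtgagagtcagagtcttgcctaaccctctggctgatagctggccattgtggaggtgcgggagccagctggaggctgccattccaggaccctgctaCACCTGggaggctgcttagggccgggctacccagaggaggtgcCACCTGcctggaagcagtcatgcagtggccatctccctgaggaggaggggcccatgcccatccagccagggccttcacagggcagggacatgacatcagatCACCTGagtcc
Eomes: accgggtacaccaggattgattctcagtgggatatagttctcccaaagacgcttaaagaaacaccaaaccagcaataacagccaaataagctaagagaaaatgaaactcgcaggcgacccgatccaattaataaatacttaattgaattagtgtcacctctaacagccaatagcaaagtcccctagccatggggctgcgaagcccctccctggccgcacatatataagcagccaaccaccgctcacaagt
Plac8: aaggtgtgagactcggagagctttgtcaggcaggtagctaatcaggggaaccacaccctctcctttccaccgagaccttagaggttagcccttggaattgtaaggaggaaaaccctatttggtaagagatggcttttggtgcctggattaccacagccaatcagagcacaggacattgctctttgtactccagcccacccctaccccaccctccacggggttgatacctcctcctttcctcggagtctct
Cdx2: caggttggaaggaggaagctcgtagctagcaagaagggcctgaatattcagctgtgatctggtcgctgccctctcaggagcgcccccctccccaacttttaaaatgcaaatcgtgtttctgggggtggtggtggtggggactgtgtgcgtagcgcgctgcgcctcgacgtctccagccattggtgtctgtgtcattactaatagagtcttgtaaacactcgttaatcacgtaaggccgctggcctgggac
These windows lie at chr2:103411848-103412097 (plus strand), chr9:118477939-118478188 (plus strand), chr5:100572206-100572455 (minus strand) and chr5:147307250-147307499 (minus strand). The Elf5 window, before the first of its 2 starts, held the motif 3 times. The other 10 windows of the trophoblast factors held it 0 times. Of all 32851 RefSeq windows of this length, 17.2% held it at least once and 0.247% at least 3 times. CpG dinucleotides numbered 2 in this Elf5 window, 8 in Eomes, 4 in the Plac8 window shown and 13 in Cdx2, against a median of 6 over all windows. The other Elf5 window held 8 and the other Plac8 window 9. The Gata3 window held 19 and the pair of Gata2 windows 22 and 24. A match describes letters only and shows no binding.

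In GRCm38.p6, Tead4 spans chr6:128227143-128300813 and Gata2 chr6:88193891-88207032, both on chromosome 6. Cdx2 spans chr5:147300900-147307249 and Plac8 chr5:100551589-100572253 on chromosome 5. Gata3 spans chr2:9857078-9887953, Elf5 chr2:103412098-103450989 and Tfap2c chr2:172545678-172558622 on chromosome 2. Eomes spans chr9:118478186-118486132, Hand1 chr11:57828713-57832147 and Tfap2a chr13:40713802-40738238.

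Libraries of the genotype table held 19944644 to 36025046 counts, those of the Pramel7 table held 10123058 to 30135341 and those of the time course 16674526 to 30169626. Levels are given as CPM, the count of a gene scaled to a common library size, 1 value per library. Differences are fitted log2 fold changes with their standard error (SE), and a gene is called when its adjusted p is under 0.05. Ctbp1 was at 61.1 to 82.5 CPM in the lines with CtBP and at 0 to 0.200 CPM in the 3 lines without it, and Ctbp2 went from 187 to 236 to 36.5 to 43.8 CPM. Reads over Dppa2 stayed at 19.7 to 33.3 CPM in both lines labelled as Dppa2 knockouts, beside 43.99 to 101 CPM in the other 4 lines. The title of DKO-Dppa2 names Dppa2 and Dux but not CtBP, and its Ctbp1 level of 0.200 and 0 CPM goes with the description that was used. Pramel7 was at 14.04 and 26.2 CPM in P7OE and at 49.3 and 56.7 CPM in DuxKO-P7OE. It had 2, 2, 4 and 2 counts in WT against 0 and 3 in P7KO, so the knockout label cannot be checked by RNA. The summed level of 7 embryonic stem cell markers (Pou5f1, Nanog, Sox2 and others) lay between 1568 and 2901 CPM in all 34 libraries. The placental hormone genes Prl3d1 and Prl3b1, the spongiotrophoblast marker Tpbpa and the syncytin gene Synb had 0 counts in all of them. The 24 markers of differentiated trophoblast that include these genes summed to 287 to 1107 CPM in the genotype table.

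Of the 10 factors, 9 passed the filter on low counts in every table. Elf5 did not. It had 0 counts in all 6 libraries of WT, DuxKO and Dppa2KO in the genotype table. Without CtBP it was counted 4 and 2 times (CtbpDKO), 2 and 1 times (Ctbp-Dux TKO) and 3 and 0 times (DKO-Dppa2). These are 0.122 and 0.0559 CPM in CtbpDKO, where 3 counts correspond to 0.0838 to 0.0915 CPM. In the time course Elf5 had 6 and 6 counts at day 0 and 0 and 0 at day 3. It had 4 and 0 counts at day 9, 0 and 4 at day 12 and 0 and 6 at day 18. Day 3 was thus at least 1.89-fold lower than day 0 against a floor of 3 counts per library, with no test. Other Elf5 differences between groups were not detectable at this depth, and its promoter methylation was not analysed here.

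The loss of CtBP can be read in WT cells, in DuxKO cells and in Dppa2KO cells, in 3 pairs of groups that share no library. The lines without CtBP may still share a parent line, so the 3 pairs may not be independent. Tead4, Eomes and Plac8 rose in all 3 pairs. Hand1 rose in 2 of them, and Cdx2, Gata2, Gata3, Tfap2a and Tfap2c passed the test in 1 background each. In CtbpDKO against WT, 4 of the 9 tested factors were called higher and 0 lower, against a background of 14.7% (higher) and 11.4% (lower) of 21193 tested genes. In Ctbp-Dux TKO against DuxKO the factors counted 6 higher and 1 lower (all genes 21.4% and 19.6%), and in DKO-Dppa2 against Dppa2KO 5 higher and 0 lower (all genes 15.2% and 15.2%). The median log2 fold change of the 9 factors was 1.30, 1.59 and 1.76 in these 3 comparisons, beside 0.01, 0.04 and 0.01 over all tested genes.

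**Figure D1:**
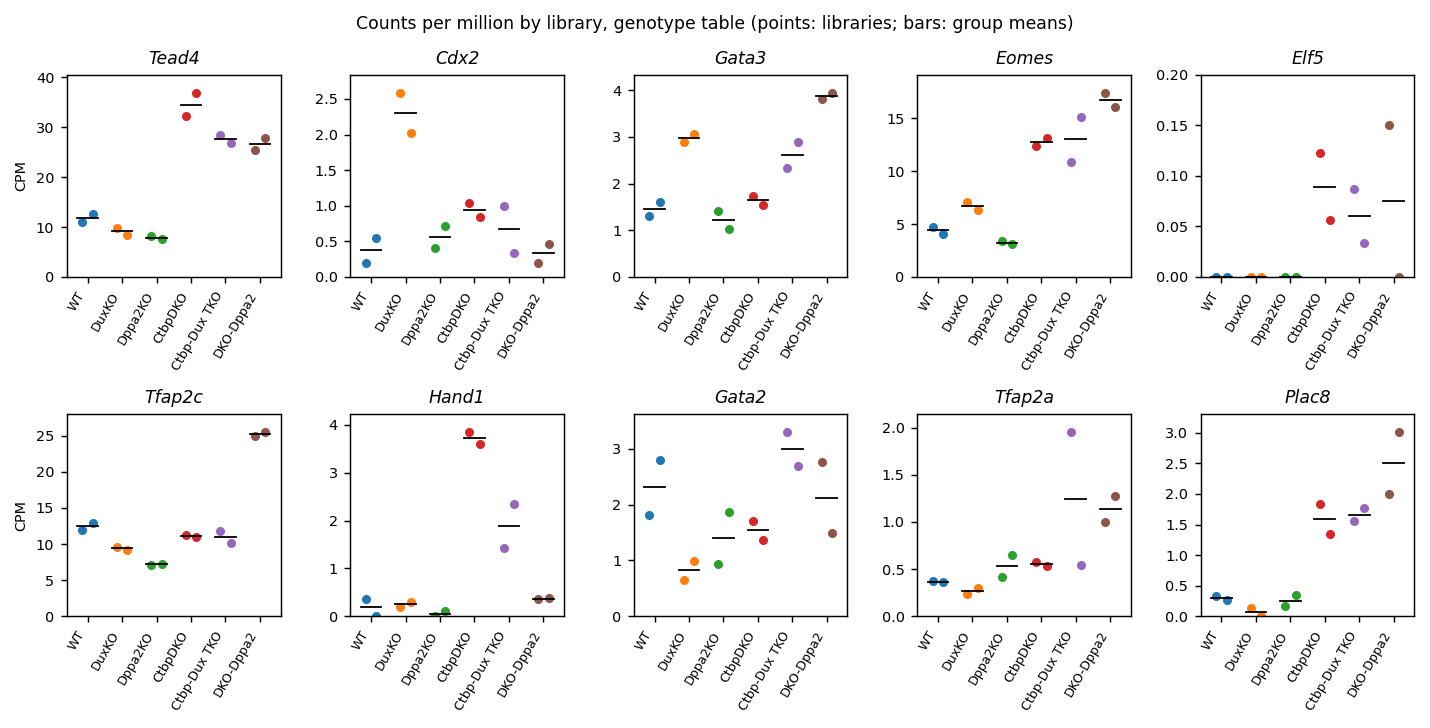
CPM of each of the 10 factors (y axis, linear from 0) in the 12 libraries of the genotype table; points are libraries, bars are means of 2. Tead4 and Eomes lie higher in all 6 libraries without CtBP than in the 6 with it, Tfap2c is high in DKO-Dppa2, and Cdx2 is high in DuxKO.

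Tead4, the DNA-binding partner of Yap1 at the top of the trophectoderm programme, was at 11.1 and 12.7 CPM in WT, 9.86 and 8.48 in DuxKO and 8.18 and 7.52 in Dppa2KO. Without CtBP it was at 32.2 and 36.9 CPM (CtbpDKO), 28.4 and 26.9 (Ctbp-Dux TKO) and 25.4 and 27.8 (DKO-Dppa2). The 6 libraries without CtBP did not overlap the 6 with it. The log2 fold change with CtBP loss was 1.54 (SE 0.12, edgeR adjusted p 1.03e-06) in WT cells. It was 1.59 (SE 0.13, edgeR adjusted p 5.28e-07) in DuxKO cells and 1.76 (SE 0.13, edgeR adjusted p 3.88e-07) in Dppa2KO cells. The fold was near 3 in each background (2.91, 3.01 and 3.39). The interaction of CtBP loss with Dux loss was 0.05 (SE 0.17, edgeR adjusted p 0.879) and that with Dppa2 loss 0.22 (SE 0.17, edgeR adjusted p 0.478), neither past the threshold.

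Eomes, a T-box factor of trophoblast stem cells that also acts in the primitive streak, was at 4.76 and 4.08 CPM in WT and 12.4 and 13.1 in CtbpDKO. With Dux also lost it went from 7.04 and 6.28 CPM in DuxKO to 10.9 and 15.1 in Ctbp-Dux TKO, and with Dppa2 targeted from 3.36 and 3.09 to 17.4 and 16.02. The order of the group means ran from Dppa2KO through WT and DuxKO to CtbpDKO, Ctbp-Dux TKO and DKO-Dppa2, and the libraries of CtbpDKO lay inside the range of Ctbp-Dux TKO. CtBP loss raised Eomes by 1.53 (SE 0.17, edgeR adjusted p 1.7e-05) on the log2 scale in WT cells, by 0.97 (SE 0.16, edgeR adjusted p 0.000391) in DuxKO cells and by 2.37 (SE 0.17, edgeR adjusted p 4.13e-07) in Dppa2KO cells. The rise was larger without Dppa2, with an interaction of 0.84 (SE 0.24, edgeR adjusted p 0.0458). That call was lost when any 1 of the 8 libraries was left out (log2 0.73 to 0.98, adjusted p 0.0654 to 0.150).

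Hand1, the basic helix-loop-helix factor of giant cells, was at 0.369 and 0 CPM in WT, 0.204 and 0.299 in DuxKO and 0 and 0.113 in Dppa2KO. It reached 3.84 and 3.60 CPM with CtBP lost in WT cells and 1.43 and 2.34 with CtBP lost in DuxKO cells, while DKO-Dppa2 was at 0.351 and 0.381. Hand1 thus rose with CtBP loss in WT cells by 4.32 (SE 0.76, edgeR adjusted p 0.000839) on the log2 scale and in DuxKO cells by 2.89 (SE 0.74, edgeR adjusted p 0.00685). In Dppa2KO cells the value was 2.62 (SE 1.11, edgeR adjusted p 0.0913), which missed the threshold. It passed with DESeq2 (adjusted p 0.0217) and with no filter on low counts (0.00428). DKO-Dppa2 stood below CtbpDKO, at −3.33 (SE 0.72, edgeR adjusted p 0.00759). The interaction with Dppa2 loss was −1.69 (SE 1.62, edgeR adjusted p 0.579), so a difference between the backgrounds in the response to CtBP loss did not pass the test. Without WT replicate 1, the remaining WT library has 0 counts and the first value becomes 9.79 (adjusted p 0.000371), which depends on the prior count. Without DuxKO replicate 1 the value in DuxKO cells was 2.65 (adjusted p 0.0543), and without DKO-Dppa2 replicate 2 that against CtbpDKO was −3.39 (adjusted p 0.0635).

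Plac8 was at 0.335 and 0.261 CPM in WT, 0.136 and 0 in DuxKO and 0.165 and 0.340 in Dppa2KO. It was at 1.83 and 1.34 CPM (CtbpDKO), 1.56 and 1.77 (Ctbp-Dux TKO) and 2.003 and 3.01 (DKO-Dppa2). The 6 libraries without CtBP (1.34 to 3.01 CPM) lay above the 6 with it (0 to 0.340 CPM). The log2 fold changes with CtBP loss were 2.39 (SE 0.56, edgeR adjusted p 0.00637) in WT cells, 4.54 (SE 0.72, edgeR adjusted p 0.000222) in DuxKO cells and 3.30 (SE 0.56, edgeR adjusted p 0.000637) in Dppa2KO cells. Without WT replicate 2 the first was 2.19 (adjusted p 0.0578). Without DuxKO replicate 1, the second was 8.63 (adjusted p 0.000330), set by a lone DuxKO library at 0 counts.

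Cdx2, the homeodomain factor that specifies trophectoderm, was at 0.201 and 0.554 CPM in WT and 1.04 and 0.838 in CtbpDKO, and the difference of 1.30 (SE 0.61, edgeR adjusted p 0.142) missed the threshold. In DuxKO it stood higher, at 2.58 and 2.03 CPM, and in Ctbp-Dux TKO at 0.997 and 0.340. CtBP loss thus changed Cdx2 in DuxKO cells by −1.82 (SE 0.57, edgeR adjusted p 0.0208) on the log2 scale, and its interaction with Dux loss was −3.11 (SE 0.83, edgeR adjusted p 0.0192). Gata2 had the opposite interaction. It was at 1.81 and 2.80 CPM in WT, 1.71 and 1.37 in CtbpDKO, 0.646 and 0.997 in DuxKO and 3.29 and 2.68 in Ctbp-Dux TKO, with an interaction of 2.44 (SE 0.58, edgeR adjusted p 0.0106). CtBP loss raised Gata2 in DuxKO cells by 1.85 (SE 0.43, edgeR adjusted p 0.00348), while the change of −0.59 (SE 0.40, edgeR adjusted p 0.319) in WT cells missed the threshold. For the interaction, the background was 9.82% of genes higher and 9.64% lower, with 1 factor called in each direction.

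These calls rest on few counts. The fall of Cdx2 in DuxKO cells was −2.75 (adjusted p 0.0123) without Ctbp-Dux TKO replicate 1, −1.22 (adjusted p 0.156) without replicate 2 and −1.63 (adjusted p 0.101) without DuxKO replicate 1. The Cdx2 interaction lost its call without WT replicate 1, DuxKO replicate 1, CtbpDKO replicate 1 or Ctbp-Dux TKO replicate 2 (log2 −4.04 to −2.49, adjusted p 0.0121 to 0.0723 over all 8 left-out libraries). The Gata2 interaction had an adjusted p of 0.0510 without WT replicate 2 and 0.0502 without DuxKO replicate 1. Tfap2a, an AP-2 factor of early trophoblast, was called higher in Ctbp-Dux TKO than in DuxKO, by 2.17 (SE 0.63, edgeR adjusted p 0.0140). Its Ctbp-Dux TKO libraries were at 1.95 and 0.543 CPM and its DuxKO libraries at 0.238 and 0.299. Without Ctbp-Dux TKO replicate 1 the Tfap2a value was 1.00 (adjusted p 0.292). It was 2.02 (adjusted p 0.0825) and 2.33 (adjusted p 0.0536) without DuxKO replicates 1 and 2.

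Gata3, a direct Tead4 target in trophectoderm, and Tfap2c, the AP-2 factor that sustains trophoblast stem cells, rose with CtBP loss where Dppa2 had also been targeted. Gata3 went from 1.31 and 1.60 CPM in WT to 1.74 and 1.54 in CtbpDKO, and from 1.40 and 1.02 in Dppa2KO to 3.81 and 3.94 in DKO-Dppa2. Tfap2c went from 11.98 and 12.9 to 11.3 and 10.95 CPM and from 7.10 and 7.29 to 24.99 and 25.5 CPM in the same groups. In both genes the DKO-Dppa2 libraries lay above every other library of the table. CtBP loss in Dppa2KO cells raised Gata3 by 1.67 (SE 0.26, edgeR adjusted p 0.000347) and Tfap2c by 1.81 (SE 0.12, edgeR adjusted p 1.83e-07). In WT cells the values were 0.17 (SE 0.27, edgeR adjusted p 0.704) and −0.16 (SE 0.12, edgeR adjusted p 0.360). The interactions with Dppa2 loss were 1.501 (SE 0.38, edgeR adjusted p 0.0281) for Gata3 and 1.97 (SE 0.17, edgeR adjusted p 5.66e-05) for Tfap2c. With Eomes these made 3 factors called higher and 0 lower for that interaction, against 3.23% and 5% of all genes. The Gata3 interaction lost its call without WT replicate 2, Dppa2KO replicate 2, either CtbpDKO library or either DKO-Dppa2 library (log2 1.29 to 1.77, adjusted p 0.0299 to 0.102), while that of Tfap2c kept it without any 1 library (adjusted p 0.000163 to 0.000651).

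Markers of other cells differed between the same libraries. Their sums are given for the lower and the higher library of each group, with and then without CtBP, and were not tested. The 8 2-cell markers went from 0.293 and 0.436 to 20.6 and 23.6 CPM in WT cells, from 0.0680 and 0.133 to 0.136 and 0.217 in DuxKO cells and from 0 and 0.0551 to 0 and 0 in Dppa2KO cells. The 7 primitive endoderm markers went from 28.5 and 33.2 to 38.5 and 40.7 CPM in WT cells, from 7.45 and 7.92 to 134 and 137 in DuxKO cells and from 17.6 and 20.9 to 10.7 and 11.3 in Dppa2KO cells. The 5 fibroblast markers went from 1.74 and 2.18 to 11.3 and 11.6 CPM in WT cells. They went from 1.06 and 1.496 to 7.33 and 8.73 in DuxKO cells and from 0.624 and 0.936 to 4.01 and 4.62 in Dppa2KO cells. Of these markers, Postn was at 0 in all 6 groups and Col3a1 was at 0 in WT, Ctbp-Dux TKO and DKO-Dppa2. The 3 neural markers Sox1, Pax6 and Neurog2 went from 44.5 and 47.5 to 8.08 and 8.41 CPM in WT cells, from 51.3 and 52.4 to 10.1 and 12.7 in DuxKO cells and from 32.6 and 32.8 to 12.7 and 14.03 in Dppa2KO cells. Neurog2 was at 0 in every group but CtbpDKO. The 5 germ cell markers went from 72.03 and 79.5 to 52.7 and 57.3 CPM in WT cells, from 76.4 and 79.96 to 59.7 and 67.7 in DuxKO cells and from 81.6 and 81.6 to 59.3 and 59.4 in Dppa2KO cells. The 5 surface ectoderm and neural crest markers went from 1.48 and 1.66 to 2.38 and 2.44 CPM in WT cells, from 0.465 and 0.850 to 2.25 and 2.75 in DuxKO cells and from 0.688 and 0.709 to 1.23 and 1.503 in Dppa2KO cells. Among them, Trp63 was at 0 in WT, DuxKO and Dppa2KO, Krt5 in WT, and Krt14 in DuxKO, Dppa2KO and DKO-Dppa2. The 6 mesoderm markers went from 2.99 and 3.39 to 2.53 and 2.57 CPM in WT cells, from 2.29 and 2.72 to 2.78 and 3.43 in DuxKO cells and from 2.78 and 2.95 to 1.86 and 3.01 in Dppa2KO cells. The part of these cells in the changes of the trophoblast factors was not tested. In bulk RNA, a few cells with much of a transcript and many cells with little of it cannot be told apart.

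**Figure D2:**
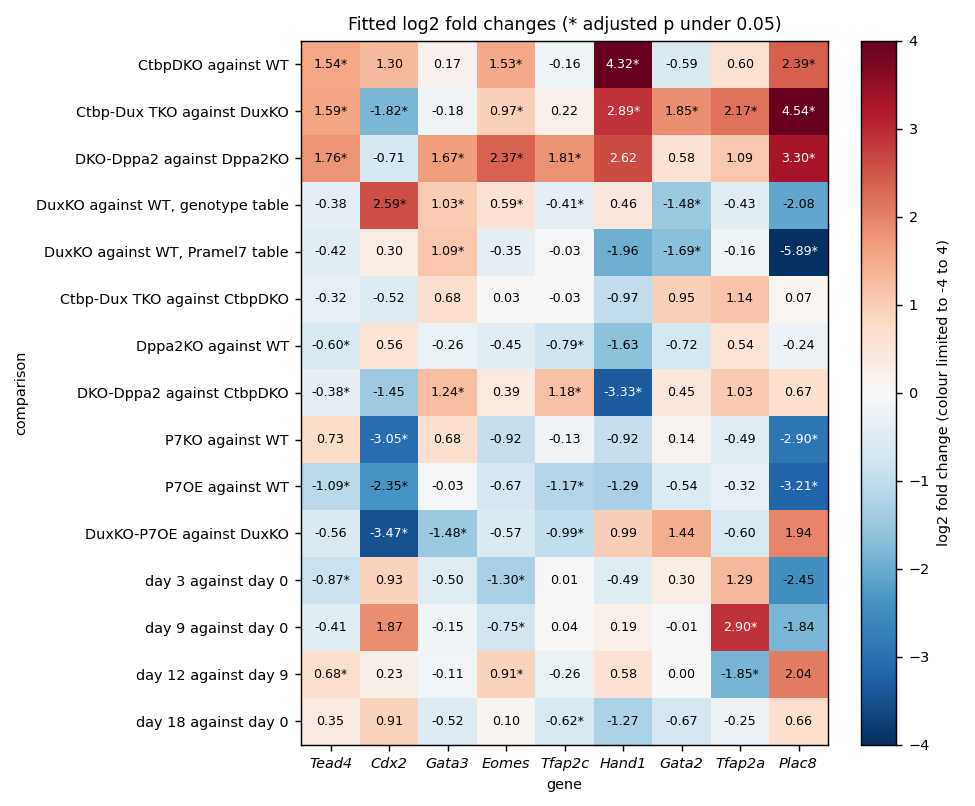
Fitted log2 fold change (colour and number) of the 9 tested factors (columns) in 15 comparisons (rows); an asterisk marks an adjusted p under 0.05. Tead4, Eomes and Plac8 are positive and called in the top 3 rows, which are the 3 comparisons of CtBP loss, and Plac8 is negative and called in 3 Pramel7 table rows.

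Other trophoblast genes gave the following counts. Of 20 further trophectoderm and trophoblast stem cell markers, CtBP loss gave 11 higher and 3 lower of 18 tested in WT cells, 11 higher and 6 lower of 18 tested in DuxKO cells and 8 higher and 4 lower of 18 tested in Dppa2KO cells. Their median log2 fold changes were 0.65, 0.99 and 0.33. In WT cells their sum went from 462 and 486 to 714 and 738 CPM with CtBP loss. The sum went from 633 and 661 to 685 and 699 CPM in DuxKO cells and from 631 and 672 to 752 and 773 in Dppa2KO cells. Aqp3, a water channel of trophectoderm, rose by 4.66 (SE 0.17), 4.14 (SE 0.16) and 3.85 (SE 0.16) in the 3 backgrounds, and its mean went from 1.78 CPM in WT to 45.2 CPM in CtbpDKO. In WT cells Krt7, an epithelial keratin, rose by 4.11 (SE 0.61, edgeR adjusted p 0.000224), the basement membrane protein gene Tinagl1 by 3.18 (SE 0.27, edgeR adjusted p 1.65e-06) and Plet1, a surface protein gene of early placenta, by 3.09 (SE 0.35, edgeR adjusted p 2.38e-05). Of 24 markers of differentiated trophoblast, CtBP loss gave 5 higher and 3 lower of 13 tested, 7 higher and 1 lower of 13 tested and 6 higher and 2 lower of 13 tested. Their sum went from 287 and 296 to 924 and 975 CPM in WT cells. It went from 589 and 630 to 996 and 1107 CPM in DuxKO cells and from 314 and 371 to 628 and 687 in Dppa2KO cells. Prl8a9 of this list was at 0 in WT, DuxKO and Dppa2KO but not in the groups without CtBP. The sums were not tested. Peg10, an imprinted gene needed for the placenta, rose by 2.15 (SE 0.11, edgeR adjusted p 2.24e-08) in WT cells, and Rtl1, another imprinted placental gene, fell by 3.43 (SE 0.30, edgeR adjusted p 4.52e-06).

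Relatives of the factors counted 7 higher and 0 lower of 12 tested in WT cells, 7 higher and 1 lower of 12 tested in DuxKO cells and 6 higher and 1 lower of 12 tested in Dppa2KO cells. Cdx1, the paralogue of Cdx2, rose by 3.45 (SE 0.30, edgeR adjusted p 2.32e-06) in WT cells. Gata1 rose by 2.95 (SE 0.42, edgeR adjusted p 0.000159), the epithelial ETS factor Elf3 by 1.53 (SE 0.14, edgeR adjusted p 3.03e-06) and the endoderm factor Gata6 by 1.34 (SE 0.30, edgeR adjusted p 0.00491). Gata4 and Gata6 also stand on the primitive endoderm list. Of 20 Hippo pathway genes and Tead partners, 6 higher and 4 lower of 20 tested were called in WT cells. Amotl2, a scaffold that holds Yap1 out of the nucleus, rose by 1.17 (SE 0.11, edgeR adjusted p 4.84e-06), and Vgll4, which competes with Yap1 for Tead proteins, by 1.17 (SE 0.18, edgeR adjusted p 0.000322). Ccn1 and Ccn2, classical Yap1 targets, went opposite ways, by 0.73 (SE 0.14) and −0.65 (SE 0.09). Of 16 genes of Bmp and Fgf signalling, 9 higher and 3 lower of 16 tested were called, with Bmp4 at 0.90 (SE 0.12, edgeR adjusted p 9.54e-05). Of 19 repressors of trophoblast genes, 5 higher and 4 lower of 19 tested were called. Zeb2, a CtBP partner, fell by 1.95 (SE 0.37, edgeR adjusted p 0.00146) in WT cells, and Pou5f1, which holds Cdx2 down in stem cells, was at −0.36 (SE 0.10, edgeR adjusted p 0.0223).

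Dux loss was measured in both knockout tables. In the genotype table DuxKO against WT gave 3 factors higher and 2 lower of 9, with 7.94% of all genes higher and 9.56% lower. In the Pramel7 table it gave 1 higher and 2 lower, with 7.76% and 8.91% of 20161 tested genes. Gata3 rose and Gata2 fell in both tables. Gata3 was at 1.31 and 1.60 CPM in WT and 2.89 and 3.06 in DuxKO of the genotype table, a log2 fold change of 1.03 (SE 0.26, edgeR adjusted p 0.0156). In the Pramel7 table it was at 2.54, 3.33, 2.54 and 3.05 CPM in WT and 5.65 and 6.50 in DuxKO, a change of 1.09 (SE 0.26, edgeR adjusted p 0.0136). Gata2 went from 1.81 and 2.80 to 0.646 and 0.997 CPM, a change of −1.48 (SE 0.43, edgeR adjusted p 0.0288), and from 1.63, 1.12, 1.501 and 1.55 to 0.112 and 0.715 CPM, a change of −1.69 (SE 0.51, edgeR adjusted p 0.0390). The libraries of the groups overlapped in neither table for either gene.

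The other factors did not pass in both tables. Cdx2 was called higher in DuxKO of the genotype table, by 2.59 (SE 0.59, edgeR adjusted p 0.00885). In the Pramel7 table its DuxKO libraries, at 6.99 and 7.75 CPM, overlapped WT at 7.84, 6.91, 5.66 and 3.59, with 0.30 (SE 0.30, edgeR adjusted p 0.566). The WT level itself differed between the tables, which were scaled separately. Eomes was called at 0.59 (SE 0.17, edgeR adjusted p 0.0302) in the genotype table and stood at −0.35 (SE 0.27, edgeR adjusted p 0.420) in the Pramel7 table. There it was called lower, against the direction of the genotype table, when only WT replicates 3 and 4 were the reference, at −0.70 (adjusted p 0.0344). Tfap2c was called at −0.41 (SE 0.12, edgeR adjusted p 0.0311) and stood at −0.03 (SE 0.23, edgeR adjusted p 0.948). Plac8 had 2 and 0 counts in DuxKO of the Pramel7 table, against 3.75, 3.01, 2.54 and 2.59 CPM in WT, and was at least 21.6-fold lower (edgeR adjusted p 0.000220). In the genotype table, with WT already at 0.335 and 0.261 CPM, the value of −2.08 (SE 0.85, edgeR adjusted p 0.114) missed the threshold. In Ctbp-Dux TKO against CtbpDKO 0 factors were called, where 3.6% and 4.54% of genes were called higher and lower by edgeR and the unadjusted p was under 0.05 for Gata2, Gata3 and Tead4. DESeq2 also called 0.

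All 5 calls of DuxKO in the genotype table were lost with 1 library left out. The calls of Eomes (adjusted p 0.0604 to 0.190) and Tfap2c (0.0706 to 0.169) were lost whichever of the 4 libraries was left out. That of Gata3 (0.0482 to 0.112) was lost without any of them but WT replicate 2, and that of Gata2 (0.0391 to 0.198) without any but WT replicate 1. Cdx2 (0.0193 to 0.0851) lost its call without WT replicate 1 or DuxKO replicate 1. Over the 4 left-out libraries the log2 fold changes stayed at 2.05 to 3.49 for Cdx2, 0.90 to 1.18 for Gata3, 0.48 to 0.71 for Eomes, −0.46 to −0.35 for Tfap2c and −1.83 to −1.14 for Gata2. The Tfap2c call was also lost with DESeq2 (adjusted p 0.0538). In the Pramel7 table, Gata2 was at −1.04 (adjusted p 0.228) without DuxKO replicate 3 and −3.63 (adjusted p 0.0106) without replicate 4, and lost its call without WT replicate 3, 5 or 6 (adjusted p 0.0106 to 0.228 over all). Gata3 had an adjusted p of 0.0678 and 0.136 without DuxKO replicates 3 and 4.

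Of the other trophoblast genes, the trophectoderm list counted 5 higher and 3 lower of 18 tested in DuxKO of the genotype table and 3 higher and 7 lower of 19 tested in that of the Pramel7 table. Differentiated trophoblast markers counted 3 higher and 4 lower of 13 tested and 0 higher and 5 lower of 13 tested. The imprinted growth restrainers Phlda2 and Cdkn1c fell in both. Phlda2 fell, with log2 fold changes of −2.83 (SE 0.23, edgeR adjusted p 4.47e-06) and −4.75 (SE 0.26, edgeR adjusted p 7.47e-07), and Cdkn1c fell, with log2 fold changes of −2.95 (SE 0.14, edgeR adjusted p 6.34e-08) and −4.63 (SE 0.18, edgeR adjusted p 3.97e-08). Bmp4, a signal to trophoblast, fell, with log2 fold changes of −1.78 (SE 0.13) and −1.43 (SE 0.25). Aqp3 and the trophoblast stem cell factor Ascl2 fell in the Pramel7 table, with log2 fold changes of −2.46 (SE 0.23) and −5.52 (SE 0.44). The relatives counted 2 higher and 4 lower of 12 tested and 0 higher and 2 lower of 12 tested, the Hippo list 2 higher and 5 lower of 20 tested and 2 higher and 2 lower of 20 tested, the Bmp and Fgf list 8 higher and 4 lower of 16 tested and 4 higher and 4 lower of 16 tested, and the repressors 2 higher and 4 lower of 19 tested and 1 higher and 2 lower of 19 tested. The sum of primitive endoderm markers was 28.5 to 33.2 CPM in WT and 7.45 to 7.92 in DuxKO of the genotype table, beside 7.27 to 8.999 and 7.86 to 9.56 in the Pramel7 table. Its part was not tested.

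Tfap2c and Tead4 fell with the loss of Dppa2 alone. Dppa2KO against WT gave 0 factors higher and 2 lower, with 7.67% and 8.69% of genes. Tfap2c was at 7.10 and 7.29 CPM in Dppa2KO and 11.98 and 12.9 in WT, a log2 fold change of −0.79 (SE 0.12, edgeR adjusted p 0.000853). Tead4 fell by 0.60 (SE 0.13, edgeR adjusted p 0.00674), and without WT replicate 2 its value was −0.50 (adjusted p 0.0685). In the absence of CtBP, DKO-Dppa2 against CtbpDKO gave 2 higher and 2 lower, with 5.75% and 9.67% of genes. Gata3 rose by 1.24 (SE 0.26, edgeR adjusted p 0.00630) and Tfap2c by 1.18 (SE 0.12, edgeR adjusted p 3.82e-05), and Hand1 fell as given above. Tead4 was also called, at −0.38 (SE 0.12, edgeR adjusted p 0.0493), but lost the call with other scaling factors, with no filter, with DESeq2 (adjusted p 0.0693) and without any 1 of the 4 libraries (log2 −0.47 to −0.27, adjusted p 0.0602 to 0.286). Without CtbpDKO replicate 2 the Gata3 value was 1.16 (adjusted p 0.0536). The direction of Tfap2c thus differed between the 2 comparisons, lower without Dppa2 where CtBP was present and higher where it was absent, which is the interaction tested above.

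In Dppa2KO against WT the trophectoderm list counted 4 higher and 2 lower of 18 tested and in DKO-Dppa2 against CtbpDKO 1 higher and 3 lower of 18 tested. The glucose transporter gene Slc2a1 rose in both, by 1.21 (SE 0.08) and 0.71 (SE 0.08). Differentiated trophoblast markers counted 2 higher and 4 lower of 13 tested and 1 higher and 4 lower of 13 tested, Hippo genes 0 higher and 5 lower of 20 tested and 1 higher and 5 lower of 20 tested, and Bmp and Fgf genes 2 higher and 2 lower of 16 tested and 0 higher and 5 lower of 16 tested. Repressors counted 6 higher and 1 lower of 19 tested and 0 higher and 7 lower of 19 tested. Among those lower in DKO-Dppa2 were the maintenance methyltransferase gene Dnmt1, at −0.68 (SE 0.09, edgeR adjusted p 0.000461), and the deacetylase gene Hdac2, at −0.56 (SE 0.08, edgeR adjusted p 0.000790). Relatives counted 1 higher and 1 lower of 12 tested and 1 higher and 4 lower of 12 tested, with Gata6 at −2.25 (SE 0.34, edgeR adjusted p 0.000876) in the latter.

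**Figure D3:**
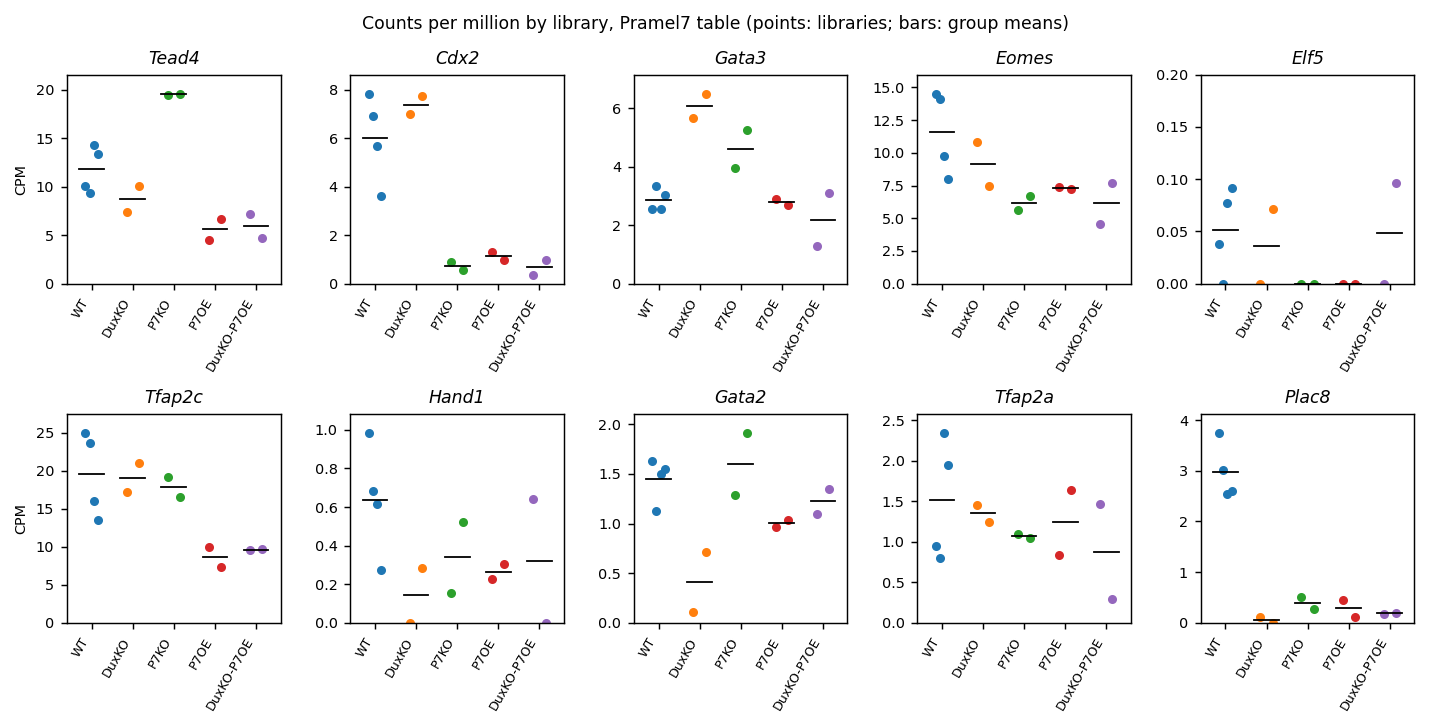
CPM of each of the 10 factors (y axis, linear from 0) in the 12 libraries of the Pramel7 table; points are libraries, bars are means of 4 (WT) or 2. Cdx2 is lower in P7KO, P7OE and DuxKO-P7OE than in WT and DuxKO, Plac8 is lower in all 4 other groups than in WT, and the WT points of Tead4, Tfap2a, Tfap2c and Eomes form 2 pairs. The same WT libraries also separate, with less even pairs, for Cdx2, Plac8 and Hand1.

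The WT libraries of the Pramel7 table fell into pairs for several factors. Replicates 3 and 4 against 5 and 6 were at 10.1, 9.40, 14.3 and 13.4 CPM for Tead4, 0.946, 0.803, 2.35 and 1.96 for Tfap2a, 25.02, 23.7, 16.1 and 13.5 for Tfap2c and 14.5, 14.1, 9.74 and 8.01 for Eomes, in replicate order. The first pair was lower for Tead4 and Tfap2a and higher for Tfap2c and Eomes. It was also higher, without overlap, for Cdx2, at 7.84 and 6.91 against 5.66 and 3.59 CPM. The same held for Plac8 (3.75 and 3.01 against 2.54 and 2.59) and Hand1 (0.984 and 0.683 against 0.616 and 0.273). The labels give no batch that separates the pairs. In 3 marker lists the WT libraries also stood apart from every other group. Summed mesoderm markers were 13.6 to 21.6 CPM in WT, 4.70 to 5.002 in DuxKO, 4.96 to 5.26 in P7KO, 5.72 to 6.71 in P7OE and 4.92 to 5.96 in DuxKO-P7OE. Summed neural markers were 10.5 to 17.1 CPM in WT, 58.7 to 60.03 in DuxKO, 24.2 to 26.4 in P7KO, 39.5 to 42.6 in P7OE and 32.3 to 35.5 in DuxKO-P7OE. Summed germ cell markers were 37.3 to 47.6 CPM in WT, 76.2 to 89.3 in DuxKO, 84.1 to 87.5 in P7KO, 60.5 to 67.2 in P7OE and 64.3 to 70.1 in DuxKO-P7OE. Eomes, Cdx2 and Hand1 are also expressed in early mesoderm, and the part of such cells, or of those of the other lists, in the WT levels was not tested.

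Cdx2 and Plac8 were lower than WT of the same table both with more Pramel7 and with its knockout. P7OE gave 0 factors higher and 4 lower, where 11% of genes were called higher and 8.9% lower. P7KO gave 0 higher and 2 lower, where 3.93% were higher and 5.55% lower. Both comparisons use the same 4 WT libraries, so a WT level set apart enters both. WT of the genotype table, scaled separately, stood lower, at 0.201 and 0.554 CPM for Cdx2 and 0.335 and 0.261 for Plac8. P7OE and P7KO were not compared with those libraries. Cdx2 was at 1.32 and 0.974 CPM in P7OE and 0.880 and 0.557 in P7KO, below every WT library. The log2 fold changes were −2.35 (SE 0.37, edgeR adjusted p 0.000889) and −3.05 (SE 0.39, edgeR adjusted p 0.000348). Plac8 was at 0.452 and 0.122 CPM in P7OE and 0.503 and 0.278 in P7KO, against 3.75, 3.01, 2.54 and 2.59 in WT, with −3.21 (SE 0.56, edgeR adjusted p 0.00163) and −2.90 (SE 0.52, edgeR adjusted p 0.00377). The P7KO value of Plac8 was −2.55 (adjusted p 0.0705) without P7KO replicate 2.

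Tfap2c and Tead4 fell with overexpression. Tfap2c was at 9.94 and 7.36 CPM in P7OE, a change of −1.17 (SE 0.25, edgeR adjusted p 0.00534), and at 19.2 and 16.5 in P7KO, inside the WT range. Tead4 was at 4.55 and 6.63 CPM in P7OE, a change of −1.09 (SE 0.25, edgeR adjusted p 0.00779). In P7KO Tead4 was at 19.5 and 19.6 CPM, above all 4 WT libraries, and its 0.73 (SE 0.22, edgeR adjusted p 0.0549) just missed the threshold. It passed with DESeq2 (adjusted p 0.0310) and against WT replicates 3 and 4 alone (0.00400), but not against WT replicates 5 and 6 alone (0.189). Eomes in P7KO, at 5.62 and 6.68 CPM and −0.92 (SE 0.27, edgeR adjusted p 0.0536), likewise passed with DESeq2 and against WT replicates 3 and 4 (adjusted p 0.0132 and 0.00111) and missed against WT replicates 5 and 6 (0.196). Without P7OE replicate 1 Tead4 was −0.83 (adjusted p 0.126) in P7OE, and without replicate 2 Tfap2c was −0.97 (adjusted p 0.0984).

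In DuxKO cells Pramel7 overexpression lowered 3 factors and raised 0, where 11.6% of genes were higher and 9.83% lower. Cdx2 went from 6.99 and 7.75 CPM in DuxKO to 0.367 and 0.964 in DuxKO-P7OE, a change of −3.47 (SE 0.48, edgeR adjusted p 0.000341). Gata3 went from 5.65 and 6.50 to 1.28 and 3.09 CPM, a change of −1.48 (SE 0.35, edgeR adjusted p 0.00968), and Tfap2c from 17.2 and 21.05 to 9.54 and 9.74, a change of −0.99 (SE 0.28, edgeR adjusted p 0.0246). The groups overlapped for none of these 3 genes. Gata3 was −0.96 (adjusted p 0.0866) without DuxKO-P7OE replicate 1, −2.24 (adjusted p 0.00352) without replicate 2 and −1.37 (adjusted p 0.0637) without DuxKO replicate 4. Tfap2c lost its call without any 1 of the 4 libraries (log2 −1.11 to −0.84, adjusted p 0.0568 to 0.143). Whether the response to Pramel7 differs between WT and DuxKO cells was not tested. Between DuxKO-P7OE and P7OE 0 factors were called by edgeR and 0 by DESeq2, with 0 at an unadjusted p under 0.05. Of all genes, 0% were called higher and 0.0298% lower. These groups also differed in Pramel7 level, at 49.3 and 56.7 CPM in DuxKO-P7OE and 14.04 and 26.2 in P7OE. The DuxKO-P7OE libraries held 11089600 and 10123058 counts, and those of P7OE held 30135341 and 17061530.

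The keratins of trophectoderm were lower beside Cdx2. Krt8 fell, with log2 fold changes of −1.72 (SE 0.32, edgeR adjusted p 0.00232) in P7OE and −2.44 (SE 0.33, edgeR adjusted p 0.000516) in P7KO, and Krt18 fell, with log2 fold changes of −1.41 (SE 0.23) and −1.91 (SE 0.23). The trophectoderm list counted 2 higher and 5 lower of 19 tested in P7OE, 2 higher and 9 lower of 19 tested in P7KO and 6 higher and 4 lower of 19 tested in DuxKO-P7OE against DuxKO. In the last comparison Ascl2 rose by 5.28 (SE 0.47, edgeR adjusted p 1.18e-05) and Plet1 by 4.20 (SE 0.51, edgeR adjusted p 0.000133). Differentiated trophoblast markers counted 0 higher and 1 lower of 13 tested, 2 higher and 7 lower of 13 tested and 3 higher and 1 lower of 13 tested. Hippo genes counted 0 higher and 2 lower of 20 tested, 0 higher and 6 lower of 20 tested and 2 higher and 6 lower of 20 tested, with the Yap1 target Ccn1 lower, with log2 fold changes of −1.58 (SE 0.20) in P7OE and −1.47 (SE 0.20) in P7KO. Bmp and Fgf genes counted 3 higher and 2 lower of 16 tested, 2 higher and 1 lower of 16 tested and 3 higher and 8 lower of 16 tested, and Fgf5, a gene of the primed state, fell, with log2 fold changes of −2.03 (SE 0.29) and −3.06 (SE 0.31). Repressors counted 1 higher and 2 lower of 19 tested, 3 higher and 0 lower of 19 tested and 1 higher and 2 lower of 19 tested, with Zeb2 higher by 1.61 (SE 0.23, edgeR adjusted p 0.000425) in P7OE. Relatives counted 3 higher and 1 lower of 12 tested, 0 higher and 2 lower of 12 tested and 3 higher and 0 lower of 12 tested, and Gata6 and Gata4 rose in P7OE by 3.17 (SE 0.36) and 2.30 (SE 0.26). Summed primitive endoderm markers were 76.96 to 81.5 CPM in P7OE and 71.5 to 77.9 in DuxKO-P7OE, against 7.27 to 8.999 in WT, and their part in the lower trophoblast factors was not tested.

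The time course follows CtbpDKO cells in which Ctbp2 reads rose and fell again. Ctbp2 was at 58.9 and 59.3 CPM on day 0, 544 and 573 on day 3, 309.8 and 296 on day 9, 49.4 and 44.7 on day 12 and 52.4 and 54.7 on day 18. Eomes and Tead4, which had risen with CtBP loss in 3 backgrounds, fell from day 0 to day 3 and rose from day 9 to day 12. Tfap2a was highest on day 9. The course has no line without the Dox label, so the effects of Ctbp2, of Dox and of time in culture cannot be told apart.

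**Figure D4:**
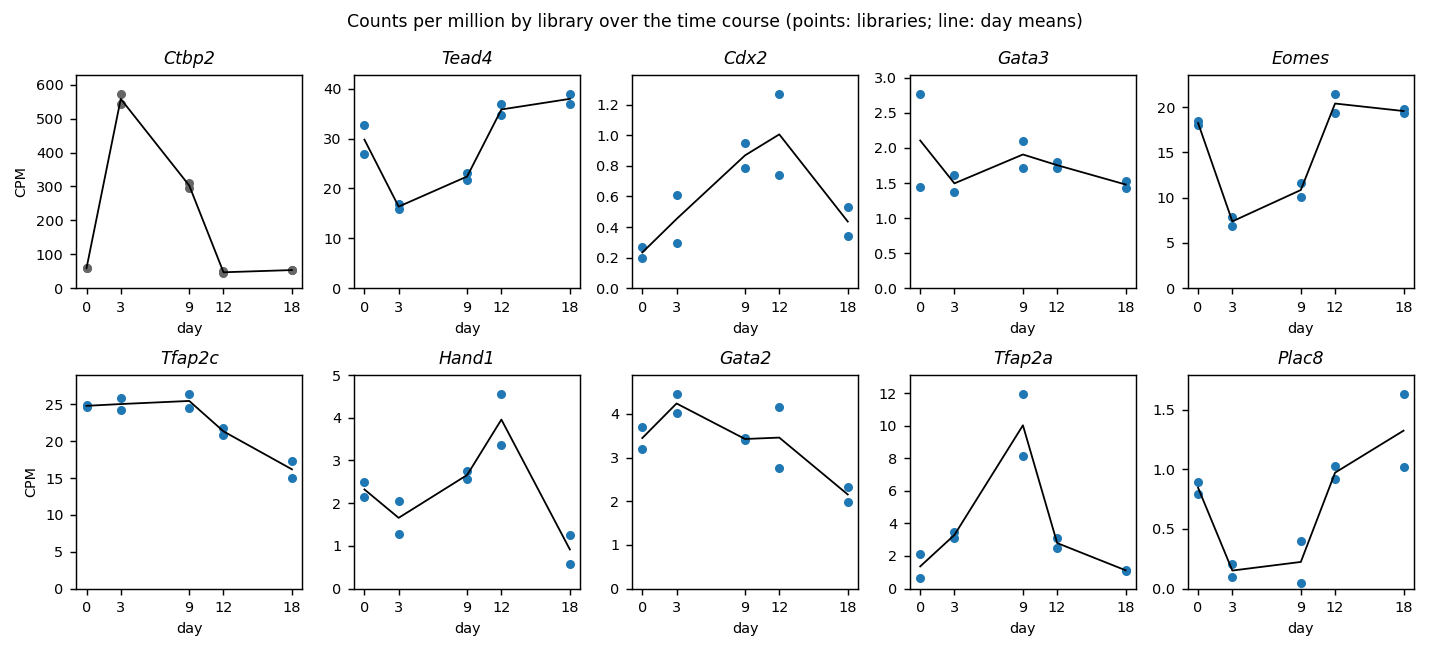
CPM (y axis, linear from 0) of Ctbp2 (grey) and of the 9 tested factors (blue) against day; points are the 2 libraries of a day and lines join their means. Eomes and Tead4 are lowest on day 3, when Ctbp2 is highest, Tfap2a is highest on day 9, and Tfap2c is lowest on day 18.

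Eomes was at 18.5 and 18.01 CPM on day 0, 7.87 and 6.88 on day 3, 11.6 and 10.1 on day 9, 19.3 and 21.4 on day 12 and 19.3 and 19.8 on day 18. It fell by 1.30 (SE 0.14, edgeR adjusted p 0.000155) on the log2 scale to day 3, was at −0.75 (SE 0.14, edgeR adjusted p 0.00417) against day 0 on day 9, and rose by 0.91 (SE 0.14, edgeR adjusted p 0.00222) to day 12. Between days 0 and 18 it differed by 0.10 (SE 0.13, edgeR adjusted p 0.815). Tead4 was at 26.8 and 32.8 CPM on day 0, 15.8 and 16.9 on day 3, 21.8 and 23.04 on day 9, 36.95 and 34.7 on day 12 and 38.9 and 36.97 on day 18. It fell by 0.87 (SE 0.12, edgeR adjusted p 0.00129) to day 3 and rose by 0.68 (SE 0.12, edgeR adjusted p 0.00620) from day 9 to day 12. On day 9 Tead4 was at −0.41 (SE 0.12, edgeR adjusted p 0.0557) against day 0, which missed the threshold, so both genes passed as lower on day 3 and Eomes alone on day 9. On day 12 the libraries of both lay above those of day 0. Without day 9 replicate 2 the day 9 value of Eomes against day 0 was −0.66 (adjusted p 0.0528). Without day 9 replicate 1 or day 12 replicate 1 the day 12 rise of Tead4 was 0.63 (adjusted p 0.0766) and 0.63 (adjusted p 0.0811).

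Plac8 was at 0.796 and 0.894 CPM on day 0, 0.0978 and 0.204 on day 3, 0.402 and 0.0436 on day 9, 1.03 and 0.917 on day 12 and 1.02 and 1.63 on day 18. All 4 libraries of days 3 and 9 lay below all 6 others, but the change to day 3, −2.45 (SE 0.82, edgeR adjusted p 0.111), missed the threshold and passed it with no filter on low counts (adjusted p 0.0303). Tfap2a was at 2.09 and 0.626 CPM on day 0, 3.47 and 3.11 on day 3, 11.9 and 8.12 on day 9, 3.08 and 2.50 on day 12 and 1.08 and 1.16 on day 18. It rose by 2.90 (SE 0.40, edgeR adjusted p 0.000555) between days 0 and 9 and fell by 1.85 (SE 0.37, edgeR adjusted p 0.0115) to day 12. The fall lost its call without day 9 replicate 1 or either day 12 library (adjusted p 0.0326 to 0.132 over the 4 left-out libraries). The rise from day 3 to day 9, 1.61 (SE 0.36, edgeR adjusted p 0.0528), was called by DESeq2 (adjusted p 0.00368). Tfap2a is also a gene of surface ectoderm and neural crest, and the sum of 5 markers of these cells was 2.23 to 2.24 CPM on day 0, 4.03 to 4.16 on day 3, 4.49 to 4.90 on day 9, 2.62 to 2.93 on day 12 and 1.86 to 2.04 on day 18. Their part in the Tfap2a level was not tested.

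Hand1 was at 2.14 and 2.50 CPM on day 0, 1.27 and 2.04 on day 3, 2.74 and 2.57 on day 9, 3.36 and 4.55 on day 12 and 0.566 and 1.26 on day 18. Its fall from day 12 to day 18 was called at −2.05 (SE 0.39, edgeR adjusted p 0.0276), and was lost without either day 12 library or day 18 replicate 1 (adjusted p 0.0274 to 0.255 over the 4). Tfap2c stayed at 24.3 to 26.4 CPM up to day 9 and was at 17.4 and 15 on day 18. The difference from day 0, −0.62 (SE 0.12, edgeR adjusted p 0.0368), lost its call without any 1 library (adjusted p 0.0768 to 0.196). Cdx2 ran from 0.199 to 1.27 CPM, Gata2 from 1.98 to 4.45 and Gata3 from 1.38 to 2.77, with 0 calls between any of the days compared.

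In counts, day 3 against day 0 gave 0 factors higher and 2 lower, where 2.41% and 2.59% of 20612 tested genes were called. Day 9 against day 3 gave 0 and 0 (0.524% and 0.592%; edgeR unadjusted p under 0.05 for Eomes, Tead4 and Tfap2a, and 1 call by DESeq2). Day 9 against day 0 gave 1 and 1 (3.6% and 3.73%), day 12 against day 9 gave 2 and 1 (1.87% and 1.97%). Day 18 against day 12 gave 0 and 1 (0.64% and 0.18%), and day 18 against day 0 gave 0 and 1 (0.359% and 0.155%). Summed 2-cell markers were 26.6 to 31.7 CPM on day 0, 18.6 to 29.2 on day 3, 3.88 to 6.07 on day 9, 4.73 to 6.07 on day 12 and 18.3 to 21.98 on day 18. The sum was high together with Eomes and Tead4 on days 0 and 18 and lower together with them on day 9. It was high on day 3, when both genes were low, and low on day 12, when both had risen again. The part of 2-cell-like cells in the levels of either gene was not tested. Summed fibroblast markers were 9.96 to 11.8, 6.73 to 6.75, 5.38 to 7.37, 14.8 to 16.8 and 18.9 to 20.5 CPM on these days, and their part was not tested.

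Other trophoblast genes followed Eomes and Tead4 in part. The trophectoderm list counted 1 higher and 5 lower of 19 tested on day 3 against day 0 and 3 higher and 0 lower of 19 tested on day 12 against day 9. Aqp3 fell by 2.13 (SE 0.14, edgeR adjusted p 3.19e-06) and rose by 1.47 (SE 0.14, edgeR adjusted p 4.66e-05), Krt8 fell by 1.19 (SE 0.11, edgeR adjusted p 3.47e-05) and rose by 0.68 (SE 0.11, edgeR adjusted p 0.00322), and Plet1 fell by 1.17 (SE 0.28, edgeR adjusted p 0.0305) and rose by 1.34 (SE 0.26, edgeR adjusted p 0.0112). Zeb2, low in CtbpDKO, moved the other way and rose by 2.27 (SE 0.26, edgeR adjusted p 0.000300), then fell by 1.41 (SE 0.25, edgeR adjusted p 0.00598). Among the relatives, Elf3 fell by 0.77 (SE 0.13) and rose by 0.59 (SE 0.13), while Tead1, the paralogue of Tead4, rose by 0.45 (SE 0.10) and fell by 0.51 (SE 0.10). Differentiated trophoblast markers counted 1 higher and 1 lower of 13 tested and 1 higher and 0 lower of 13 tested, with Phlda2 in both at −1.41 (SE 0.23) and 1.38 (SE 0.22). Hippo genes counted 2 higher and 0 lower of 20 tested and 0 higher and 2 lower of 20 tested, Bmp and Fgf genes 1 higher and 3 lower of 16 tested and 2 higher and 0 lower of 16 tested, and repressors 2 higher and 1 lower of 19 tested and 1 higher and 1 lower of 19 tested.

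Across the 12 libraries of the genotype table, the factors varied together to different degrees. Pearson's r of log2 CPM ran from −0.55 to 0.89 over the 36 pairs of tested factors, with a median of 0.42. Tead4 and Eomes had an r of 0.89, as did Tead4 and Plac8. In the 12 libraries of the Pramel7 table the highest r was 0.82, for Cdx2 and Eomes. In the 10 libraries of the time course it was 0.95, for Eomes and Tead4, with 0.88 for Eomes and Plac8. These values describe libraries that share groups and scaling. Of 11245 candidate genes in the genotype table, the 3 most like Tead4 were Hmgxb4 (r 0.991), Kifc2 (0.989) and Dffb (0.987). The 3 most like Eomes were Ell (0.991), Vim (0.984) and Hormad2 (0.981), and those most like Tfap2c were Hilpda (0.930), Ambra1 (0.930) and Rpusd4 (0.918).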

How the data were processed

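RNA of E14tg2a stem cells and their derived lines had been prepared with a stranded kit, per the labels' protocols. The submitters' processing notes name Trim Galore, HISAT2, featureCounts and Bismark and the build mm10, with no versions. The authors deposited raw counts per gene in 1 table for the genotypes, 1 for the Pramel7 lines and 1 for the time course. A second genotype table was not used, and the bisulfite libraries were not analysed here.

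Each table was fitted alone with edgeR 4.0.16 in R 4.3.3. Genes were kept by filterByExpr, libraries were scaled by TMM (factors 0.878 to 1.10 in the genotype table, 0.877 to 1.17 in the Pramel7 table and 0.915 to 1.10 in the time course), and group was the only term of the quasi-likelihood F test. P-values were adjusted over all tested genes by Benjamini-Hochberg, with calls under 0.05. Fitted fold changes use a prior count of 0.125, so that those of genes with 0 counts in a group are no bounds. A floor of 3 counts per library was used for bounds, which cover counting error only. Contrasts of 3 or 4 groups were tested as interactions. Correlations used log2 CPM with a prior count of 2.

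The 10 factors and the gene lists were chosen with earlier results of these data known, so list counts are descriptions. A gene of the neural list is not reported here and was left out of its sum. From each list up to 4 genes per comparison could be named, those called with the largest fold whose libraries did not overlap and whose higher group had a mean of at least 1 CPM. Genes most like a factor were sought for the 3 called in most genotype comparisons, among genes with a mean of at least 2 CPM. Alternatives were DESeq2 1.42.0, other scaling factors, no filter on low counts, a prior count of 2, a fit of only the groups compared, the replicate block, each library left out, and subsets of the WT libraries. The code was tested on simulated data. DKO-Dppa2 was grouped by its description, because its title names other genes. Positions and promoter windows come from RefSeq tables of GRCm38.p6.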

Additional observations from a re-analysis of the deposited data

Results flagged for a closer look

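For 5 results, the response of a factor to CtBP loss differed between genetic backgrounds by the edgeR interaction test. Cdx2 had a more negative response in DuxKO cells than in WT cells (difference of log2 fold changes −3.11), and Gata2 had a more positive response there (2.44). In Dppa2KO cells the response was more positive than in WT cells for Eomes (0.84), Gata3 (1.501) and Tfap2c (1.97). The adjusted p-values and the libraries each call rests on are given with these genes above. No library among the 4 WT libraries of the Pramel7 table was set apart from the others for any factor by the gap to its neighbour.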

How the results depend on the processing

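No called value of a trophoblast factor changed sign in any setting run. Of the 53 values called, 51 kept their call with DESeq2, 51 with no filter on low counts, 52 with size factors as in DESeq2, 52 with upper quartile factors and 48 in fits of only the groups compared. The prior count of 2 enters the fitted fold changes and not the F test, so it could not change a call. Leaving out 1 library kept 172 calls and lost 78. The number of factors called moved as follows, and the cause was not tested. The share of all genes called in each setting, or with 1 library left out, is not given here. These moves can therefore not be told apart from moves over all genes. In P7KO against WT, 2 became 4 with no filter, 4 with DESeq2 and 5 against WT replicates 3 and 4 only. On day 3 against day 0, 2 became 4 with no filter. On day 9 against day 3, 0 became 1 with no filter, with DESeq2, with only the groups compared and with the replicate block. On day 18 against day 12, 1 became 2 with no filter and 0 with only the groups compared. On day 18 against day 0, 1 became 0 with only the groups compared and 0 with the replicate block.

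With 1 library left out, the number called was 1 to 2 for DuxKO against WT in the genotype table (5 with all), 4 to 6 for Ctbp-Dux TKO against DuxKO (7), 1 to 2 for Dppa2KO against WT (2) and 2 to 3 for DKO-Dppa2 against CtbpDKO (4). It was 1 to 2 for the interaction of CtBP with Dux loss (2) and 1 to 2 for that with Dppa2 loss (3). In the Pramel7 table it was 1 to 3 for DuxKO against WT (3), 1 to 2 for DuxKO-P7OE against DuxKO (3) and 1 to 4 for P7KO against WT (2). In the time course it was 1 to 3 for day 9 against day 0 (2), 1 to 3 for day 12 against day 9 (3), 0 to 1 for day 18 against day 12 (1) and 0 for day 18 against day 0 (1). These numbers include factors not called with all libraries. Examples without DuxKO replicate 1 are Plac8 in DuxKO against WT (log2 −6.17) and in the interaction with Dux loss (6.24). The DuxKO library left has 0 counts of Plac8. In that interaction Hand1 was gained without WT replicate 1 (−6.90) and Eomes without Ctbp-Dux TKO replicate 2 (−0.81). Where a group was left with 1 library, that library is assumed to vary like the other groups. Factors under about 3 CPM rest on few counts, which limits their precision.

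Libraries with the same number in different groups deviated together with an r of −0.41 to 0.18 in the genotype table. It was −0.08 to 0.11 in the Pramel7 table and −0.20 to 0.09 in the time course. Between groups of 2 libraries, replicates 1 and 2 give the same r. Which libraries share a preparation cannot be told from these values. With the replicate block 40 of 44 calls were kept. The calls lost were Tead4 in DKO-Dppa2 against CtbpDKO, the Eomes interaction with Dppa2 loss, Gata2 in DuxKO of the Pramel7 table and Tfap2c on day 18 against day 0. The calls gained were Eomes in DuxKO of the Pramel7 table (lower, log2 −0.67, adjusted p 0.0338, where the genotype table called it higher) and Tfap2a on day 9 against day 3. No block could be used for the comparisons of P7OE and P7KO with WT and of DuxKO-P7OE with DuxKO, whose groups share fewer than 2 numbers.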
